A study of Homo sapiens with 12 samples.

Results

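The 8 genes described are receptors through which a lung cancer cell can receive growth signals beside EGFR, together with the ligand of one of them. They are AXL and TYRO3, 2 of the TAM receptors, GAS6, the ligand that these receptors bind, MET and MST1R, the pair of hepatocyte growth factor type receptors, and IGF1R, FGFR1 and EPHA2. The genes were taken by name from 20433 genes listed in at least 1 library. All 8 passed the filter on low counts and were among the 15592 genes tested.

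The data are RNA-seq of H1975, an established human non-small cell lung cancer line, in which KAT5 (TIP60, a histone acetyltransferase) was knocked down. The control carried a control hairpin on a genotype given as WT, and 3 groups labelled KAT5 knockdown carried hairpin sh-A, hairpin sh-B or hairpin sh-C, which made 4 groups of 3 libraries. The hairpins are tetracycline-inducible, and all 12 libraries, the control included, came from cells given 0.5 ug/ml doxycycline for 2 days. The design text names only sh-B (shTIP60-1) and sh-C (shTIP60-2) as knockdown derivatives, and the labels leave unsaid whether the 3 libraries of 1 group are independent cultures. The p-values therefore measure the spread between these libraries, which may be technical.

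Most receptor tyrosine kinases are single-pass membrane proteins that pair up when a ligand binds. They then phosphorylate each other and their adaptors, which passes the signal to the RAS and PI3K branches. In EGFR-mutant lung cancer, AXL, MET, IGF1R, FGFR1 and EPHA2 are known as bypass receptors, because their signal can replace that of a blocked EGFR. AXL and TYRO3 bind GAS6, which bridges the receptor to phosphatidylserine on membranes, MET binds HGF, MST1R (RON) binds macrophage stimulating protein, and EPHA2 binds ephrin-A ligands on neighbouring cells.

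Library totals ran from 15631504 to 28073366 expected counts. KAT5 remained at 67.0% of control in sh-A (95% interval 58.3 to 77.1%), 47.0% in sh-B (40.7 to 54.2%) and 27.3% in sh-C (23.6 to 31.7%). A marker was counted in a group when at least 1 of its libraries reached 1 CPM (CPM, counts scaled to a common library size by edgeR's TMM method). By that rule all 10 lung epithelial markers were counted in control, sh-A and sh-C, and 9 in sh-B. In sh-C 1, 2 and 3 NAPSA was at 0.76, 0.48 and 1.12 CPM. The summed level of the 10 markers was 5710 to 5980 CPM in control and 5950 to 6300 in sh-C, but 3360 to 3870 in sh-A and 4590 to 4820 in sh-B. The sh-C sum was carried by KRT7, at 2139 to 2289 CPM against 1346 to 1469 in control. In sh-C, KRT8, KRT18, KRT19, CDH1, CDH3, NKX2-1 and SFTPB were each below every control library, and EPCAM and NAPSA overlapped the control range. The fibroblast genes DCN and LUM, the leukocyte genes ITGAM and CD3E and the endothelial genes VWF and TEK were under 0.3 CPM in every library. The summed levels were 14.2 to 25.4 CPM for 7 fibroblast markers, carried by COL1A1, and 60.7 to 176 CPM for 5 leukocyte markers, carried by CD68. The 5 endothelial markers summed to 1.41 to 14.8 CPM, a spread that followed CDH5. CDH5 was at 2.57 to 2.74 CPM in control, 1.52 to 2.19 in sh-C and 0.0 in every sh-B library. In sh-A 3, 4 and 5 it was at 2.18, 11.4 and 12.6 CPM. PECAM1 was at 0.99 to 2.5 CPM over all libraries. In bulk RNA, fewer cells of a type and less RNA per cell cannot be told apart.

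Within each knockdown group 1 library was farthest from its mates: sh-A 3, sh-B 3 and, by less, sh-C 1. The median absolute log2 difference of a gene from its mates was 0.282 in sh-A 3 against 0.159 and 0.176 in sh-A 4 and 5. It was 0.225 in sh-B 3 against 0.13 and 0.142 in its mates, and 0.17 in sh-C 1 against 0.136 and 0.111. A set of 118 genes was picked for a mean over 3 CPM in sh-A and under 0.3 CPM in each library of the other groups. Low sums outside sh-A therefore follow from the rule, and a mean can admit genes high in sh-A 3 alone. In sh-A 3 the summed level of the 118 genes was 2145 CPM, against 388.3 and 396.5 in sh-A 4 and sh-A 5 and at most 4.1 in any library of the other groups. Calls for the 8 genes are also given without these libraries. The part of the 118 genes in the sh-A results was not tested.

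MET was the most abundant of 58 receptor tyrosine kinase genes in control cells. Per transcript length it had 84.4 ± 1.23 FPKM (FPKM, fragments scaled to transcript length and library size; ± SD, n = 3), above EGFR at 40.3 ± 1.41. EPHA2 followed at rank 7 with 22.0 ± 2.17 FPKM and MST1R at rank 11 with 9.04 ± 1.38. TYRO3 had 6.28 ± 0.407 FPKM, AXL 5.52 ± 0.386, FGFR1 4.15 ± 0.121 and IGF1R 3.45 ± 0.0985. The control libraries of TYRO3, at 6.04 to 6.75 FPKM, and of AXL, at 5.12 to 5.89, lay close together without overlapping, and those of the other neighbours in this order did not overlap either. GAS6, the ligand, had 1.86 ± 0.32 FPKM, below all 7 receptors.

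MET ranked 1 in all 4 groups. AXL ranked 17 in control, 13 in sh-A, 14 in sh-C and 24 in sh-B. EPHA2 ranked 7 in control, 6 in sh-A, 4 in sh-B and 2 in sh-C, where it stood above EGFR (40.0 ± 6.76 against 39.0 ± 6.06 FPKM), a gap smaller than either SD. MET supplied 60.9 to 64.9% of the summed FPKM of the 7 receptors in control libraries and 48.6 to 54.9% in sh-C libraries. EPHA2 supplied 14.8 to 17.2% in control and 26.0 to 31.8% in sh-C.

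**Figure D1:**
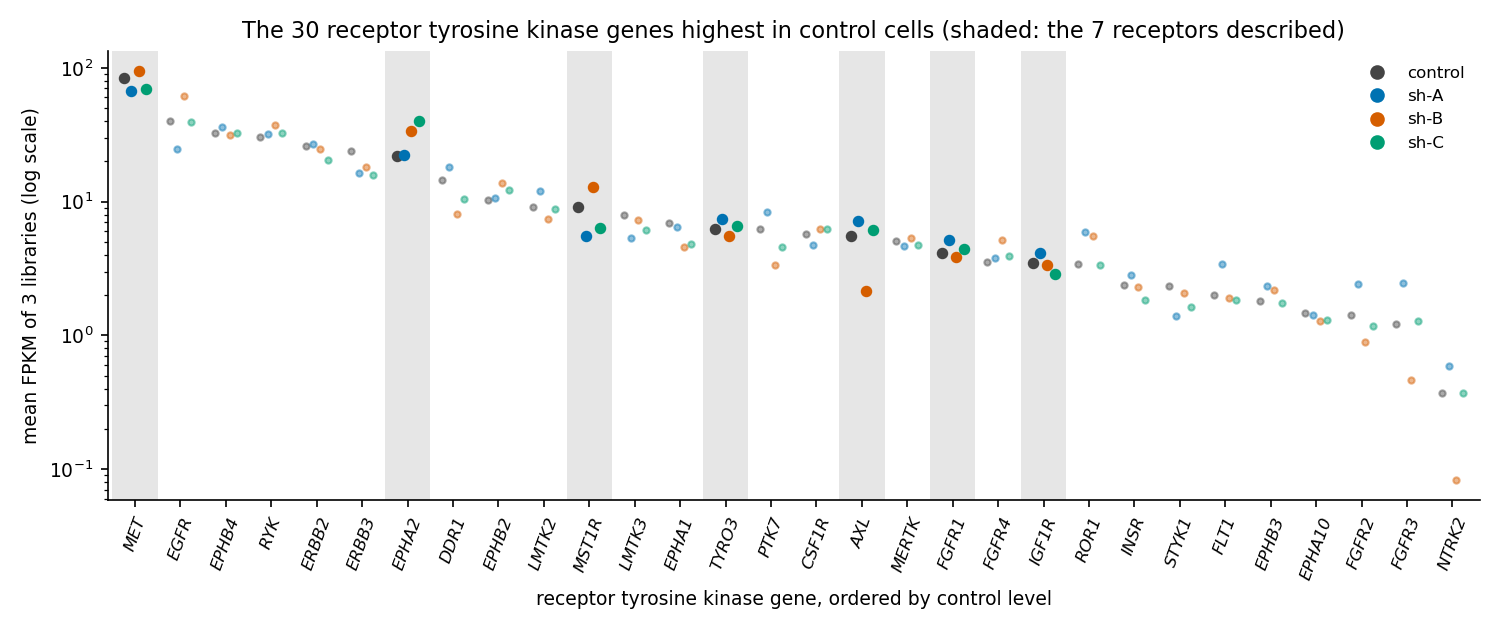
Mean FPKM of 3 libraries per group (vertical, log scale) for the 30 receptor tyrosine kinase genes highest in control cells, ordered by their control level, with the 7 receptors described shaded. MET is highest in all 4 groups, and the sh-B point of AXL, at 2.13 FPKM, lies below those of the other groups, at 5.52 to 7.16.

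AXL, on chromosome 19, had the largest log2 difference between 2 hairpins among the 8 genes. Its level was 28.0, 26.6 and 23.8 CPM in the control libraries and 12.4, 10.0 and 8.59 CPM in sh-B 3, 4 and 5. The sh-C libraries 1, 2 and 3 had 29.5, 31.8 and 30.7 CPM, and sh-A 3, 4 and 5 had 52.3, 24.2 and 21.8 CPM. The sh-B libraries lay below every other library, the sh-C libraries narrowly above every control library, and sh-A 3 alone was above all the rest while sh-A 4 and 5 were in or below the control range.

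AXL fell in sh-B to 39.5% of control (log2 fold change -1.34, SE 0.28, 95% interval -1.94 to -0.74, edgeR adjusted p = 0.0034). In sh-B, 1 of the 8 genes was called lower, where 15.0% of all genes tested were, and 1 was called higher, where 15.0% were. AXL stayed called in sh-B when any library was left out (-1.49 to -1.23, edgeR adjusted p 0.0061 to 0.018). With sh-C the difference of AXL from control was 0.23 (95% interval -0.34 to 0.80, edgeR adjusted p = 0.59). With sh-A it was 0.33 (-0.25 to 0.90, edgeR adjusted p = 0.39), and without sh-A 3 it was -0.19 (edgeR adjusted p = 0.28). The AXL level of sh-A 3 was 2.28 times the mean of its mates.

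Tested directly against each other, the hairpins differed in AXL. AXL was lower in sh-B than in sh-C by 1.57 on the log2 scale (-1.57, SE 0.28, edgeR adjusted p = 0.0013) and higher in sh-A than in sh-B by 1.67 (SE 0.28, edgeR adjusted p = 0.00036). Without sh-A 3 the latter was 1.15 and still called (edgeR adjusted p = 1.1e-05). Between sh-A and sh-C the difference was 0.09 (95% interval -0.47 to 0.66, edgeR adjusted p = 0.81), but without sh-A 3 AXL was lower in sh-A (-0.42, edgeR adjusted p = 0.017). KAT5 was lower in sh-C (27.3% of control) than in sh-B (47.0%), and AXL was lower in sh-B than in sh-C. The part of the KAT5 level in the AXL level was not tested.

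The 250 bases before the AXL start site are shown because AXL is the receptor on which the hairpins differed most. The sequence is from RefSeq (GRCh38.p14, chr19:41218973-41219222, plus strand), whereas the counts were made on hg19. Capitals mark matches to GGGCGG, the letters of the SP1 motif.

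AXL: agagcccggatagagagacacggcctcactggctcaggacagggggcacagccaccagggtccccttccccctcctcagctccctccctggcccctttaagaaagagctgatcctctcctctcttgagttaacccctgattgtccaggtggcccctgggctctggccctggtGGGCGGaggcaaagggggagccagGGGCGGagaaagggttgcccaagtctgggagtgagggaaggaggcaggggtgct

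The first bases of the 2 matches lie 78 and 54 bases before the start. Windows of 300 bases (250 before to 50 after the start) were searched on both strands for TGANTCA (AP-1), GGAATG (TEAD), GGGCGG (SP1) and CACGTG (E-box). Of 35116 RefSeq promoters of that length, 45.0% held the SP1 letters, 14.0% the TEAD letters, 7.71% the AP-1 letters and 7.26% the E-box letters. The AXL window held none of the AP-1, TEAD or E-box letters, and the window at a second AXL start held 1 TEAD match. The promoter table matched 7 of the 8 genes, FGFR1 being the other one. TYRO3 held 1 AP-1 match and MET 1 E-box match. SP1 letters occurred 3 times in the MET window, 5 times in MST1R, 3 times each in GAS6 and TYRO3 and 2 times in IGF1R.

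TYRO3, the TAM receptor that shares GAS6 with AXL, was nearly level across the groups. It had 24.3, 24.5 and 26.6 CPM in control and 29.7, 27.8 and 28.5 with sh-A. The sh-B libraries stood at 22.2, 22.0 and 24.1 CPM and the sh-C libraries at 24.0, 28.3 and 31.4. The sh-A libraries were above and the sh-B libraries below every control library by narrow margins, and the sh-C libraries spanned the control range. None of the comparisons of TYRO3 with control passed the test (sh-A 0.19, 95% interval -0.02 to 0.40; sh-B -0.14, -0.36 to 0.07; sh-C 0.15, -0.06 to 0.36). TYRO3 was higher in sh-A than in sh-B (0.33, SE 0.10, edgeR adjusted p = 0.014) and lower in sh-B than in sh-C (-0.30, SE 0.10, edgeR adjusted p = 0.041). Between sh-A and sh-C it differed by 0.04 (95% interval -0.17 to 0.25, edgeR adjusted p = 0.79). The second call was lost without any 1 of 5 libraries (sh-B 3, 4 and 5, sh-C 2 and 3), with an adjusted p of up to 0.18, and the first without sh-B 4 (edgeR adjusted p = 0.052). Reads of TYRO3 may be shared with its pseudogene copy, so its counts are uncertain to that extent.

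GAS6, the ligand of AXL and TYRO3, had 60 to 132 counts in a library. Its level was 4.71, 3.85 and 5.32 CPM in control and 4.56, 3.35 and 4.26 with sh-A. The sh-B libraries stood at 4.22, 5.17 and 4.72 CPM and the sh-C libraries at 3.81, 4.85 and 5.44. The 4 groups overlapped one another. The log2 difference from control was -0.19 (95% interval -0.60 to 0.21) in sh-A and 0.02 in both sh-B and sh-C (-0.38 to 0.42 in each), with edgeR adjusted p of 0.48, 0.96 and 0.96. The antisense gene GAS6-AS1 held 134 to 384 counts in a library. The sources used here do not say whether counting used strand, and without it reads where the 2 genes overlap cannot be told apart.

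The ligand PROS1 (protein S, which binds TYRO3 and MERTK) was lower in sh-C than in control, at 31.5 ± 0.54 against 58.2 ± 2.28 CPM (-0.89, SE 0.19, edgeR adjusted p = 0.011). It was 43.7 ± 3.01 CPM in sh-B and 71.2 ± 24.0 in sh-A, neither called with all libraries, but both called without the 3 libraries that stood apart (edgeR adjusted p = 0.00046 and 1e-05). In sh-A 3 PROS1 was at 43.6 CPM and in sh-A 4 and 5 at 82.9 and 87.0, so that sh-A 3 stood apart in PROS1 in the opposite direction to AXL. Reads of PROS1 may be shared with its pseudogene. MERTK, the other TAM receptor, was at 15.2 to 20.1 CPM in all 12 libraries and was called in none of the 3 comparisons with control. Of the 5 genes of the TAM list, 0 were called in sh-A, 1 (AXL) was lower in sh-B and 1 (PROS1) lower in sh-C, with list medians of 0.19, -0.14 and 0.02 beside 0.02, 0.00 and 0.00 over all genes tested. Over all genes tested the shares called higher and lower were 14.4% and 12.3% with sh-A, 15.0% each way with sh-B, and 9.79% and 7.16% with sh-C.

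**Figure D2:**
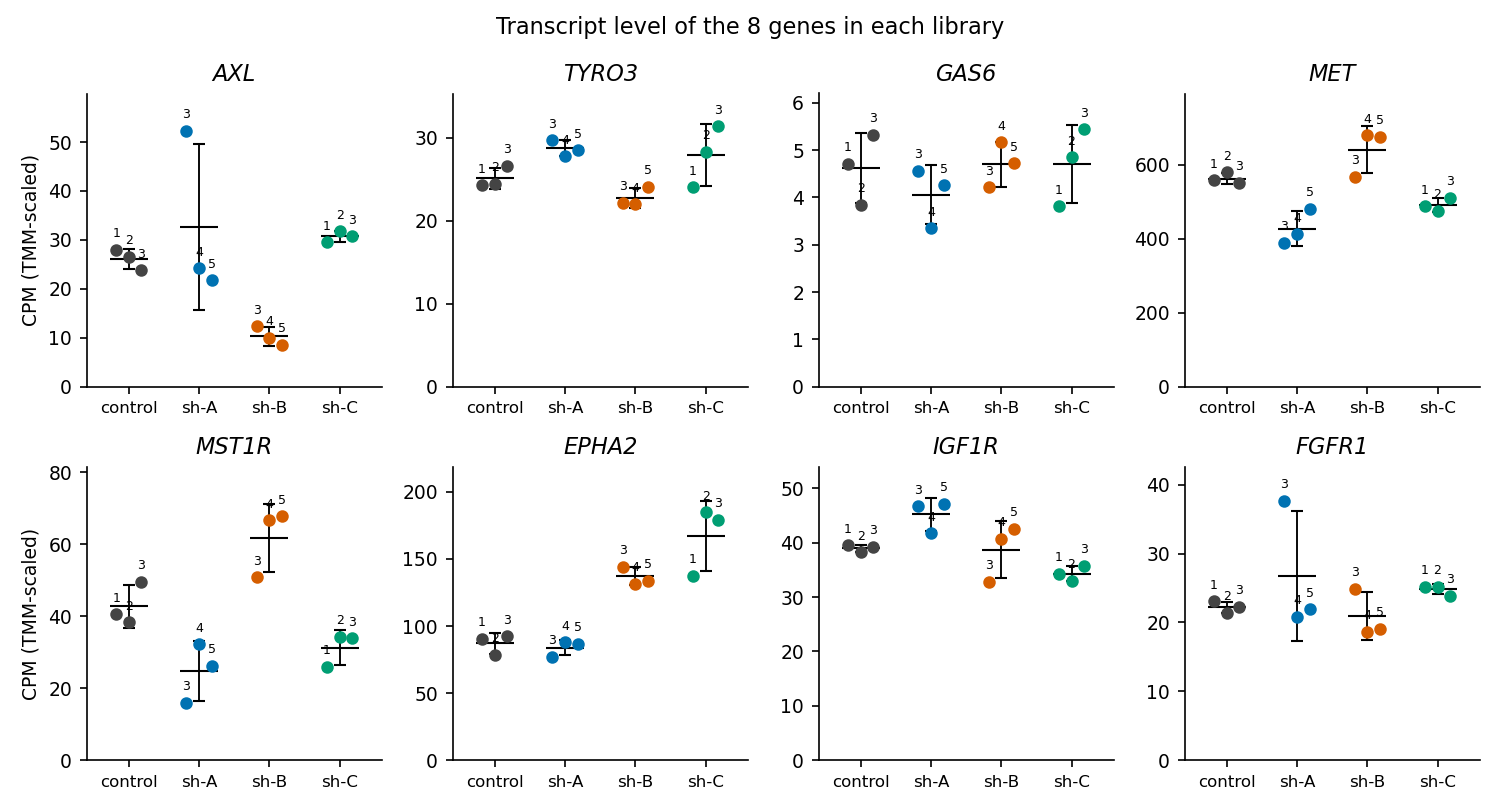
Level of each of the 8 genes (vertical, TMM-scaled CPM, axis from 0) in the 12 libraries of 4 groups; points are libraries with their number, horizontal bars the mean of 3 and vertical bars ± SD. AXL is lowest in the 3 sh-B libraries, sh-A 3 stands above its mates in AXL and FGFR1, and EPHA2 is higher in all sh-B and sh-C libraries than in control.

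MET, the HGF receptor on chromosome 7, was lower in sh-A. The level was 558, 579 and 550 CPM in control and 389, 411 and 481 CPM in sh-A. With sh-B the 3 libraries had 567, 679 and 675 CPM, and with sh-C 488, 475 and 511 CPM. All sh-A and sh-C libraries lay below all control libraries, and 2 of 3 sh-B libraries lay above them, with sh-B 3 inside the control range.

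MET fell in sh-A to 75.9% of control (-0.40, SE 0.10, 95% interval -0.60 to -0.19, edgeR adjusted p = 0.0088), and MST1R fell as well. In sh-A, 2 of the 8 genes were called lower, where 12.3% of all genes tested were, and 0 were called higher, where 14.4% were. In sh-C the difference of MET was -0.20 (-0.40 to 0.01, edgeR adjusted p = 0.17) and in sh-B 0.19 (-0.02 to 0.39, edgeR adjusted p = 0.16), neither called. Without sh-B 3 the sh-B difference was 0.27 with an edgeR adjusted p of 0.046. In the authors' deposited table, whose PPEE column is taken here as the posterior probability of equal expression, the log2 ratio of MET was -0.40 with sh-A (PPEE 0.00019), -0.19 with sh-C (PPEE 8.1e-07) and 0.19 with sh-B (PPEE 0.83). Like MET with sh-C, AXL with sh-C (0.23, PPEE 0.016) and IGF1R with sh-A (0.21, PPEE 0.01) had a low PPEE there without an edgeR call here.

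MST1R, the RON receptor on chromosome 3, spread more widely than MET. Its level was 40.5, 38.3 and 49.6 CPM in control and 15.9, 32.2 and 26.2 in sh-A. With sh-B it stood at 50.8, 66.6 and 67.8 CPM, and with sh-C at 25.9, 34.3 and 33.8. The sh-A and sh-C libraries were all below the control libraries and the sh-B libraries all above them, and the lowest library of each knockdown group was the one that stood apart. MST1R fell in sh-A to 57.6% of control (-0.80, SE 0.22, edgeR adjusted p = 0.017), a call lost without control 3 (edgeR adjusted p = 0.072). In sh-C the difference was -0.45 (95% interval -0.92 to 0.02, edgeR adjusted p = 0.17) and in sh-B 0.53 (0.06 to 0.99, edgeR adjusted p = 0.082). When each group was fitted with the control alone, the calls turned over: sh-B (0.52, edgeR adjusted p = 0.015) and sh-C (-0.45, adjusted p = 0.017) were called and sh-A (-0.79, adjusted p = 0.055) was not.

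The hairpins differed from each other in both receptors. MET was higher in sh-B than in sh-C by 0.38 (SE 0.10, edgeR adjusted p = 0.01; 0.34 and not called without sh-B 4, adjusted p = 0.05) and lower in sh-A than in sh-B by 0.58 on the log2 scale (-0.58, SE 0.10, edgeR adjusted p = 0.00033). MST1R was 1.97 times as high in sh-B as in sh-C (0.98, SE 0.22, edgeR adjusted p = 0.0052) and stood in sh-A at 40.0% of its sh-B level (-1.32, SE 0.22, edgeR adjusted p = 0.00034). Between sh-A and sh-C neither was called, at -0.20 (95% interval -0.41 to 0.01) for MET and -0.35 (-0.82 to 0.13) for MST1R. EGFR, the mutant driver receptor of H1975, was also lower in sh-A (-0.77, edgeR adjusted p = 0.0026) and higher in sh-B (0.63, edgeR adjusted p = 0.0072), with 0.03 in sh-C (edgeR adjusted p = 0.91). In the authors' deposited table the log2 ratio of EGFR with sh-B was also 0.63, but its PPEE was 0.062. The sh-B 3, 4 and 5 libraries had 271, 392 and 386 CPM of EGFR, against 223 to 232 in control.

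HGF, the MET ligand, summed to 5 counts over all 12 libraries and was not tested. MST1, the MST1R ligand, was at 0.49 to 1.73 CPM, has near-identical copies and was called in no comparison with control with all libraries (sh-C: edgeR adjusted p = 0.18, and 0.039 without the 3 libraries that stood apart). ST14 (matriptase), a membrane protease that can activate the HGF precursor, was at 513 ± 32.4 CPM in control and 148 ± 39.2 in sh-A (-1.79, SE 0.17, edgeR adjusted p = 2.3e-05), against 736 ± 84.7 in sh-B (0.52, SE 0.16, edgeR adjusted p = 0.03). SPINT1, an inhibitor of matriptase and of the HGF activator, fell in sh-A from 118 ± 3.22 to 37.5 ± 9.82 CPM (-1.66, SE 0.15, edgeR adjusted p = 2.2e-05) and was at 120 and 121 CPM in sh-B and sh-C. SPINT2, a related inhibitor, fell in sh-A by 0.28 (-0.28, edgeR adjusted p = 0.03).

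Of 9 genes on the MET and RON list 7 were tested. In sh-A 5 were called lower, MET and MST1R among them, where 12.3% of all genes tested were, and 0 higher, where 14.4% were. In sh-B 1 was called higher, where 15.0% of all genes were, and in sh-C none was called. Leaving MET and MST1R aside, 3 of 5 were called lower in sh-A. The list medians were -0.40, 0.21 and -0.20. Without the 3 libraries that stood apart, the counts were 5 lower in sh-A, 5 higher in sh-B, and 2 higher and 3 lower in sh-C. Over all genes the shares called without them were 23.8% higher and 22.2% lower with hairpin sh-A, 23.6% higher and 23.4% lower with hairpin sh-B, and 22.5% higher and 20.3% lower with hairpin sh-C. The sum of the lung epithelial markers was also lowest in sh-A, with CDH1 at 129 to 216 CPM against 708 to 723 in control, whereas NKX2-1 in sh-A, at 42.9 to 103 CPM, spanned the control range of 70.4 to 79.6. The part of these markers in the counts was not tested.

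EPHA2, an ephrin receptor on chromosome 1, was the only 1 of the 8 genes called in the same direction with both sh-B and sh-C. The level was 90.4, 78.4 and 92.5 CPM in control and 77.3, 87.9 and 86.6 in sh-A. The sh-B libraries had 144, 132 and 134 CPM and the sh-C libraries 137, 185 and 179. All 6 sh-B and sh-C libraries were above all control and sh-A libraries, and the sh-A libraries overlapped the control libraries.

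EPHA2 rose 1.57-fold in sh-B (0.65, SE 0.11, 95% interval 0.40 to 0.89, edgeR adjusted p = 0.0012) and 1.92-fold in sh-C (0.94, SE 0.11, 0.69 to 1.19, edgeR adjusted p = 0.0016). In sh-C it was the only 1 of the 8 genes called, where 9.79% of all genes tested were called higher and 7.16% lower. The sh-B and sh-C comparisons share their control libraries. EPHA2 stayed called when any 1 library was left out, at 0.57 to 0.69 in sh-B and 0.86 to 1.06 in sh-C. In sh-A the difference was -0.05 (95% interval -0.30 to 0.19, edgeR adjusted p = 0.76). EPHA2 was lower in sh-A than in sh-B (-0.70, edgeR adjusted p = 0.00029) and than in sh-C (-0.99, edgeR adjusted p = 6.4e-05). Between sh-B and sh-C it differed by -0.29 (-0.54 to -0.05, edgeR adjusted p = 0.072), and by -0.41 without sh-C 1 (edgeR adjusted p = 0.0085).

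The 250 bases before the EPHA2 start site are shown because EPHA2 was called with both hairpins of the design text. The sequence was added after its values were seen and is from RefSeq (GRCh38.p14, chr1:16156070-16156319, minus strand, read 5′ to 3′ along the gene). Capitals mark CATTCC, the reverse complement of the TEAD letters GGAATG, and then the SP1 letters GGGCGG.

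EPHA2: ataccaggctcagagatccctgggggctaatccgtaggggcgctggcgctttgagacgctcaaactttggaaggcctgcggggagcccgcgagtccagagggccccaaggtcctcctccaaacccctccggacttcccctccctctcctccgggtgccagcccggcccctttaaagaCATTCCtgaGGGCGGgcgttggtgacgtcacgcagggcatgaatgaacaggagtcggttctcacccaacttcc

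The TEAD match begins 73 bases and the SP1 match 64 bases before the start. A TEAD match was held by 14.0% of all promoters searched, and among the first start sites of the 7 matched genes only the EPHA2 window held one.

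EFNA1, an ephrin-A ligand of EPHA2, went the other way in sh-B. It was at 31.6, 31.3 and 37.0 CPM in control and 12.1, 14.8 and 15.4 in sh-B, where it fell by 1.24 (-1.24, SE 0.20, edgeR adjusted p = 0.00066). In sh-C it was 24.4, 28.6 and 25.0 CPM, below all control libraries but not called (-0.36, edgeR adjusted p = 0.22, and 0.011 without the 3 libraries that stood apart). EFNA4 and EFNA5, other ephrin-A ligands, also fell in sh-B, EFNA4 from 5.58 ± 0.562 to 2.82 ± 0.222 CPM (-0.99, SE 0.19, edgeR adjusted p = 0.0025) and EFNA5 from 18.1 ± 1.04 to 8.96 ± 0.286 (-1.02, SE 0.14, edgeR adjusted p = 0.00027). EFNA2 rose in sh-A from 0.934 to 2.31 CPM (1.30, SE 0.26, edgeR adjusted p = 0.0031) and fell in sh-B to 0.457 (-1.02, SE 0.29, edgeR adjusted p = 0.02).

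Of 22 Eph and ephrin genes 17 were tested. In sh-A 6 were called higher and 0 lower, against 14.4% and 12.3% of all genes tested. In sh-B 3 were called higher and 6 lower, against 15.0% each way, and in sh-C only EPHA2 was called, against 9.79% and 7.16%. The list medians were 0.19, -0.18 and -0.17. The receptor genes EPHA4 and EPHA7 were among those called in sh-A. EPHA4 was at 8.54, 1.75 and 2.02 CPM in sh-A 3, 4 and 5 and at most 0.52 in the other groups, and EPHA7 at 16.8, 3.30 and 3.10 against at most 0.05. Both were highest in sh-A 3. At these levels they passed the filter on low counts through the sh-A libraries, where they are high. The count of Eph and ephrin genes called higher in sh-A is therefore in part fixed by the filter. Genes of other lists that are near 0 outside sh-A can have entered in the same way.

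**Figure D3:**
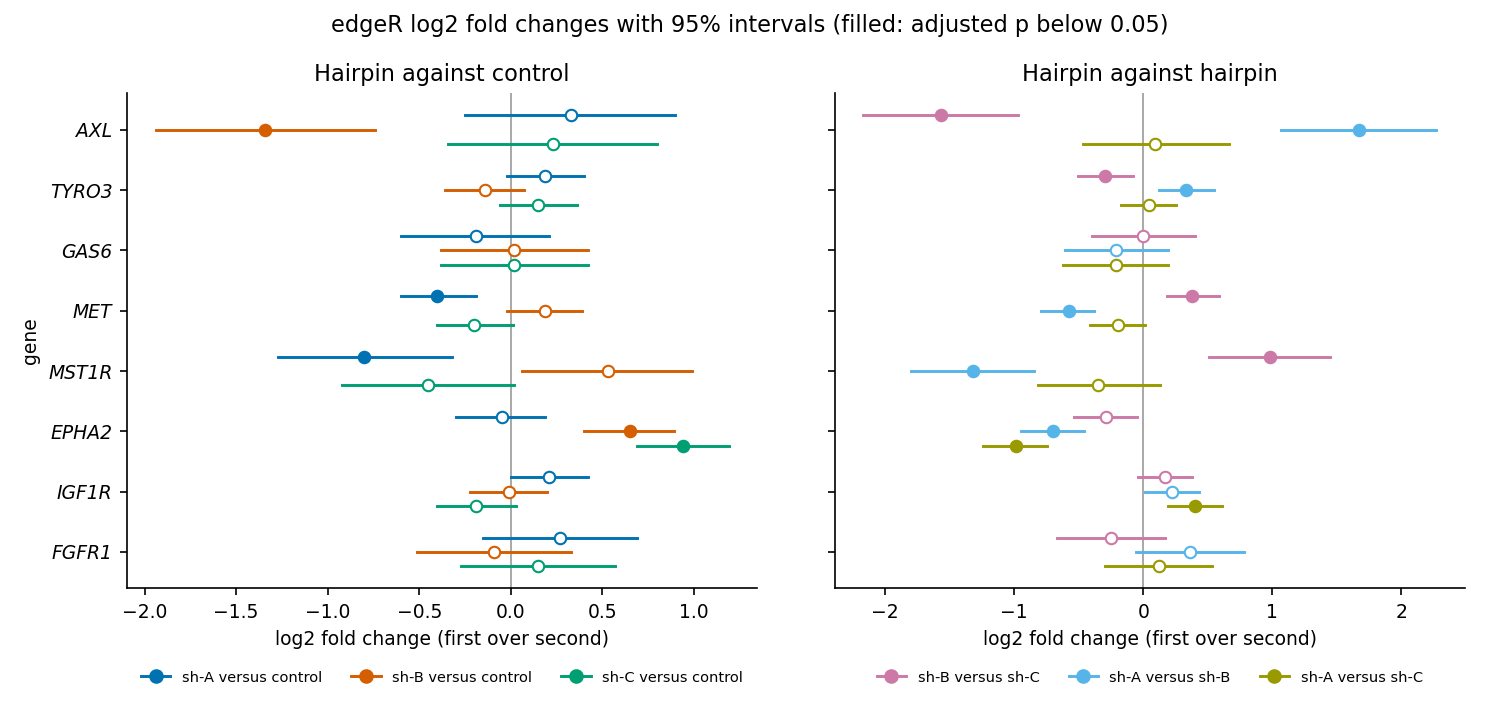
edgeR log2 fold changes (horizontal, first group over second) of the 8 genes (vertical) for each hairpin against control (left) and hairpin against hairpin (right), with 95% intervals from 3 libraries against 3; filled points passed an adjusted p of 0.05. EPHA2 is filled on the right of 0 for sh-B and sh-C and AXL on the left for sh-B, while every interval of GAS6 and FGFR1 spans 0.

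IGF1R, the receptor for IGF1 and IGF2 on chromosome 15, was called in no comparison with control. It had 39.5, 38.3 and 39.3 CPM in control and 46.7, 41.7 and 47.1 with sh-A. The sh-B libraries stood at 32.8, 40.7 and 42.6 CPM and the sh-C libraries at 34.2, 33.0 and 35.7. All sh-A libraries were above and all sh-C libraries below all control libraries, and the sh-B libraries spanned them. The log2 differences from control were 0.21 in sh-A (95% interval 0.00 to 0.42, edgeR adjusted p = 0.13), -0.01 in sh-B (-0.22 to 0.20, 0.95) and -0.19 in sh-C (-0.40 to 0.03, 0.21). Between the hairpins, IGF1R was higher in sh-A than in sh-C (0.40, SE 0.10, edgeR adjusted p = 0.0073), and EPHA2 was lower. It differed by 0.22 between sh-A and sh-B (95% interval 0.01 to 0.43, edgeR adjusted p = 0.075) and by 0.17 between sh-B and sh-C (-0.04 to 0.38, 0.21). In the comparison of sh-A with sh-C, 1 of the 8 genes was called higher and 1 lower, where 17.9% and 17.4% of all genes tested were.

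The ligand IGF2 was at 3.41, 3.50 and 3.92 CPM in sh-A and 0.13, 0.71 and 1.21 in control (2.39, SE 0.52, edgeR adjusted p = 0.0051). IGF1 was under 1.2 CPM in every library and was not called. INSR, the insulin receptor that pairs with IGF1R, and IGF2R, which clears IGF2, were not called in any comparison with control with all libraries (IGF2R in sh-B: 0.31, edgeR adjusted p = 0.12, and 0.00077 without the 3 libraries that stood apart). The binding proteins can hold IGFs away from the receptor. IGFBP2 rose in sh-A from 18.8 ± 4.06 to 37.8 ± 2.54 CPM (1.00, SE 0.15, edgeR adjusted p = 0.0006) and fell in sh-B to 4.92 ± 0.631 (-1.94, SE 0.17, edgeR adjusted p = 1.1e-05).

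IGFBP6 fell in all 3 knockdown groups, from 39.6 ± 3.28 CPM in control to 23.6 ± 4.93 in sh-A, 21.1 ± 2.04 in sh-B and 23.6 ± 2.29 in sh-C (edgeR adjusted p = 0.0025, 0.00064 and 0.0069). IGFBP4 rose in sh-B from 2.65 ± 0.261 to 8.51 ± 1.08 CPM (1.68, edgeR adjusted p = 2.6e-05). IGFBP5 was at 1.99 to 3.02 CPM in control, 5.53 to 18.7 in sh-A with sh-A 3 highest, 0.31 to 0.51 in sh-C and at most 0.1 in sh-B. Of 14 IGF genes tested of 17, 4 were called higher and 1 lower with sh-A. With sh-B the counts were 2 and 4, and with sh-C 0 and 2, with medians of 0.22, 0.02 and -0.02. Of all genes tested, 14.4% and 12.3%, 15.0% each way, and 9.79% and 7.16% were called.

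FGFR1, a receptor for fibroblast growth factors on chromosome 8, was called in none of the 6 comparisons. It had 23.1, 21.4 and 22.3 CPM in control and 37.7, 20.8 and 21.9 with sh-A. The sh-B libraries stood at 24.9, 18.7 and 19.1 CPM and the sh-C libraries at 25.2, 25.2 and 23.9. Only sh-A 3 was far from the others, at 1.76 times the mean of its mates. The difference of sh-A from control was 0.27 (95% interval -0.15 to 0.69, edgeR adjusted p = 0.33) and -0.06 without sh-A 3. In sh-B it was -0.09 (-0.51 to 0.33) and in sh-C 0.15 (-0.27 to 0.57). Between hairpins it was 0.36 for sh-A over sh-B (-0.06 to 0.78), -0.25 for sh-B over sh-C (-0.67 to 0.17) and 0.12 for sh-A over sh-C (-0.30 to 0.53). LETM2, which overlaps FGFR1 on the opposite strand, held 133 to 390 counts in a library, and without strand the reads where the 2 genes overlap cannot be told apart.

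FGF2, a ligand of FGFR1, rose in sh-A from 2.57 ± 0.267 to 6.26 ± 1.88 CPM (1.29, SE 0.24, edgeR adjusted p = 0.0023) and in sh-B to 4.91 ± 0.913 (0.94, SE 0.24, edgeR adjusted p = 0.013). In sh-C it was 3.81 ± 0.794 (0.57, edgeR adjusted p = 0.13, and 0.0028 without the 3 libraries that stood apart). FGF1, another ligand, fell in sh-A from 4.37 ± 0.419 to 1.26 ± 0.162 CPM (-1.79, SE 0.24, edgeR adjusted p = 0.00027). GPC1, a heparan sulfate proteoglycan that can hold FGFs at the cell surface, fell in sh-A to 60.1 ± 0.139 from 77.9 ± 8.57 CPM and rose to 139 ± 6.10 in sh-B and 103 ± 15.9 in sh-C (edgeR adjusted p = 0.026, 0.00022 and 0.027). GPC1 in sh-C 1, at 85.4 CPM, was level with control 1 at 85.3, and sh-C 2 and 3 had 115 and 110 CPM. The receptor FGFR3 rose in sh-A (0.98, edgeR adjusted p = 0.0042) and fell in sh-B (-1.38, edgeR adjusted p = 0.0008), and FGFR4 rose in sh-B (0.55, edgeR adjusted p = 0.0083).

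Of 17 FGF genes tested of 21, 4 were called higher and 5 lower with sh-A. With sh-B the counts were 6 and 2, and with sh-C 1 and 0. Over all genes tested the shares were 14.4% and 12.3%, 15.0% each way, and 9.79% and 7.16%. The medians of the list were 0.02, 0.04 and 0.04.

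**Figure D4:**
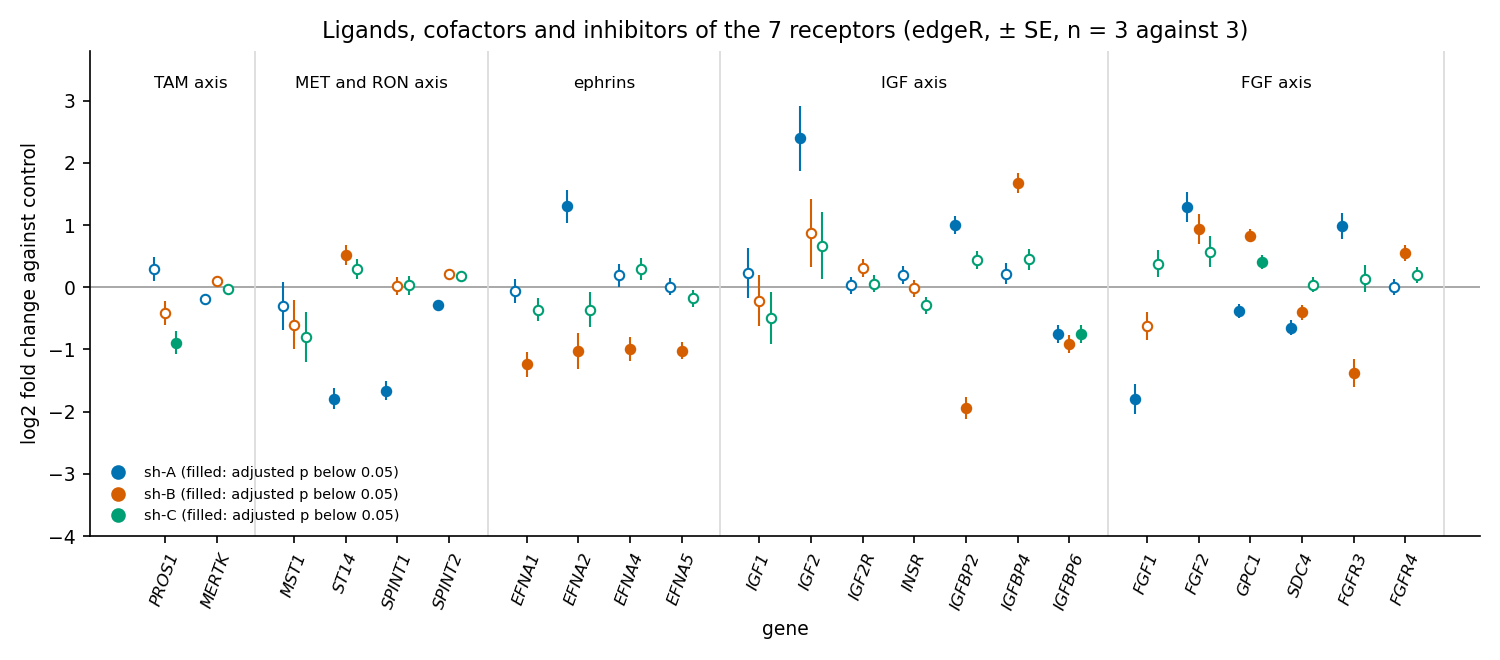
edgeR log2 fold change against control (vertical, ± SE, 3 libraries against 3) of ligands, related receptors, cofactors and inhibitors that surround the 7 receptors (horizontal, by axis); filled points passed an adjusted p of 0.05. ST14 and SPINT1 are below 0 in sh-A, 4 ephrin-A genes are below 0 in sh-B, and IGFBP6 is below 0 with all 3 hairpins.

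In the comparison of sh-B with sh-C, 4 of the 8 genes were called: MET and MST1R higher, where 13.0% of all genes tested were, and AXL and TYRO3 lower, where 14.9% were. In the comparison of sh-A with sh-B, 5 were called: AXL and TYRO3 higher, where 25.3% of all genes were, and MET, MST1R and EPHA2 lower, where 22.2% were. The FPKM ratio of MET to AXL restates these differences library by library and is not a further test. It was 14.2 to 16.4 in control, 10.6 to 11.8 in sh-C and 32.5 to 55.7 in sh-B, and in sh-A it ran from 5.27 to 15.7. The sh-B libraries were above and the sh-C libraries below all control libraries.

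Leaving out sh-A 3, sh-B 3 and sh-C 1 together raised the number of the 8 genes called from 2 to 3 in sh-A, from 2 to 5 in sh-B and from 1 to 5 in sh-C, and the number of all genes called from 4167 to 7231, from 4688 to 7388 and from 2643 to 6725. These libraries were chosen for their distance from their mates, so the spread is smaller without them by construction. MET and MST1R in sh-A, AXL and EPHA2 in sh-B and EPHA2 in sh-C were called in both fits. The added calls were IGF1R higher in sh-A, MET and MST1R higher and FGFR1 lower in sh-B, and AXL and TYRO3 higher and MET and MST1R lower in sh-C.

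Downstream of the receptors, the 22 adaptor and PI3K branch genes were all tested. In sh-A 4 were called higher and 3 lower, in sh-B 5 and 6, and in sh-C 2 and 2, with medians of -0.06, 0.15 and -0.04. The shares of all genes called were 14.4% higher and 12.3% lower in sh-A, 15.0% each way in sh-B, and 9.79% and 7.16% in sh-C. SHC1, an adaptor that links receptors to RAS, fell in sh-B from 143 ± 7.66 to 84.4 ± 3.28 CPM (-0.76, SE 0.12, edgeR adjusted p = 0.00071), and the kinase SRC from 29.8 ± 3.98 to 15.5 ± 2.14 (-0.95, SE 0.15, edgeR adjusted p = 0.00076). PLCG1, a phospholipase that receptors recruit, rose in sh-A (0.52, edgeR adjusted p = 0.0029) and fell in sh-B (-0.65, edgeR adjusted p = 0.00071). SOS2, a RAS exchange factor, fell in sh-C (-0.59, edgeR adjusted p = 0.0031).

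Of 13 genes that shed, ubiquitinate or dephosphorylate receptors, 2 were called higher and 6 lower with sh-A, 2 and 2 with sh-B, and 0 and 2 with sh-C, with medians of -0.21, 0.07 and 0.00. All genes tested gave 14.4% and 12.3%, 15.0% each way, and 9.79% and 7.16%. CBL, the ubiquitin ligase that marks MET and EGFR for degradation, fell in sh-A from 66.9 ± 0.822 to 29.9 ± 3.54 CPM (-1.16, SE 0.16, edgeR adjusted p = 0.00036). In sh-B the mean of CBL was higher, at 91.1 ± 22.2 CPM (0.45, edgeR adjusted p = 0.048). The sh-B 3 library, at 65.6 CPM, was just below the control libraries (66.0 to 67.6), and sh-B 4 and 5 had 105.8 and 102.0 CPM of CBL. Its relative CBLB fell in sh-B from 8.56 ± 0.542 to 3.66 ± 0.57 CPM (-1.22, edgeR adjusted p = 6.9e-05) and in sh-C to 5.96 ± 0.48 (-0.52, edgeR adjusted p = 0.022). The receptor phosphatase PTPRF fell in sh-A from 226 ± 15.0 to 99.6 ± 7.52 CPM (-1.18, edgeR adjusted p = 1.7e-05). ADAM10, a protease that can shed AXL and MET, fell in sh-A (-0.38, edgeR adjusted p = 0.024) and in sh-C (-0.37, edgeR adjusted p = 0.041).

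Among 32 other receptor tyrosine kinase genes 18 were tested, and 5 were called higher and 4 lower with sh-A, 3 and 3 with sh-B, and 0 and 1 with sh-C. All genes tested gave 14.4% and 12.3% with sh-A, 15.0% each way with sh-B, and 9.79% and 7.16% with sh-C. The list medians were 0.35, -0.12 and -0.17. In this list too, genes near 0 outside sh-A can have passed the filter on low counts through the sh-A libraries. The count called higher in sh-A and the sh-A median may therefore be in part fixed by the filter. ROR1, a WNT5A receptor, rose with sh-A from 19.1 ± 0.813 to 32.8 ± 2.84 CPM (0.78, edgeR adjusted p = 0.00029) and with sh-B to 32.0 ± 2.83 (0.75, edgeR adjusted p = 0.00029). NTRK2, the BDNF receptor, fell with sh-B from 2.61 ± 0.368 to 0.599 ± 0.249 CPM (-2.10, SE 0.40, edgeR adjusted p = 0.0021).

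Without the 3 libraries that stood apart, 22.5 to 23.8% of all genes were called higher and 20.3 to 23.4% lower in the 3 comparisons with control, against 9.79 to 15.0% and 7.16 to 15.0% with all libraries, and most list counts were larger too. In that fit, the Eph and ephrin genes called higher and lower were 9 and 1 with sh-A, 4 and 7 with sh-B, and 4 and 3 with sh-C. The FGF genes were 4 and 5, 7 and 5, and 4 and 0, and the IGF genes 7 and 1, 4 and 4, and 4 and 3. The TAM genes were 1 and 0, 0 and 2, and 2 and 1. The adaptor genes were 6 and 5, 10 and 6, and 2 and 5. The genes that shed, ubiquitinate or dephosphorylate receptors were 3 and 7, 5 and 2, and 1 and 5, and the other receptor tyrosine kinases 11 and 5, 4 and 5, and 2 and 6.

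Genes whose levels tracked each receptor over the 12 libraries were sought among 9961 genes with a mean of at least 10 CPM, by Pearson's r of log2(CPM + 0.5). This is a description of these libraries, which share group and library differences. The closest to AXL were FAM101B (r = 0.986), EXO1 (0.981) and MCM8 (0.98). The closest to MET were YAP1 (0.983), ARHGAP32 (0.982) and ERMP1 (0.97), and the closest to MST1R were SUN1 (0.987), STAP2 (0.975) and CHST6 (0.971).

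EPHA2 was tracked most closely by URM1 (0.986), TMEM11 (0.984) and NOL6 (0.982), IGF1R by TIAM1 (0.951), DPY19L3 (0.942) and ACVR2B (0.941), and FGFR1 by RPS19 (0.94), PAGR1 (0.934) and KATNA1 (0.931). TYRO3 was tracked by NENF (0.929), TAF5L (0.901) and APOA1BP (0.901). For GAS6 the highest values were lower, at 0.789 for LOC284023, 0.754 for GNB1 and 0.751 for NBPF9.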

How the data were processed

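RNA-seq of 12 H1975 libraries in 4 groups was analysed. The deposited files of each library hold 1 expected count and 1 FPKM per gene. The submitters' processing notes name HISAT, Bowtie2, RSEM and hg19, with versions, strand and settings not given in the sources used here. The authors also deposited comparison tables with a mean signal per group, a log2 ratio and PPEE. Their tool is not given there either. PPEE is taken here as the posterior probability of equal expression, which is not a p-value. Of 20433 genes, 15620 were named from these tables, 4734 from RefSeq, and 79 stayed unnamed.

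Expected counts (66.1% of values above 0 whole) were rounded, filtered (filterByExpr, minimum count 10) and scaled by TMM. The quasi-likelihood test of edgeR 4.0.16 (R 4.3.3) used 1 mean per group over all 12 libraries, with 8 residual degrees of freedom, a common biological coefficient of variation of 0.145 and Benjamini-Hochberg adjustment over 15592 genes; genes were called at 0.05. DESeq2 1.42.0 and limma 3.58.1 on log2(FPKM + 0.1) and log2(FPKM + 1) were alternatives. Counting error limits precision for GAS6 most, at 60 to 132 counts.

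The 8 genes, 8 pathway lists and 4 marker lists were chosen with earlier results of these data known. Other pathway genes named are, per list and comparison with control, up to 3 called genes with the smallest p and a mean of at least 1 CPM, plus direct binding partners. The title numbers pair sh-A with sh-B by the rule that same-numbered libraries correlate over 0.1 in their deviations (0.3, 0.12 and 0.22). This is read from the data, and 2 differently numbered pairs were also over 0.1 (sh-A 4 with sh-B 5 at 0.13, sh-A 5 with sh-B 4 at 0.15); control and sh-C were not paired by their numbers (-0.06, -0.13 and 0.13). No 2 libraries of a group agreed within counting noise.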

Additional observations from a re-analysis of the deposited data

How the results depend on the processing

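With the 2 groups compared alone, 1 of the 8 genes was called in sh-A against control (MET), and in sh-C 2 were (MST1R and EPHA2), with 4862 genes called in all; in sh-B MST1R was added to AXL and EPHA2. Without the 3 libraries that stood apart, 5 of the 8 genes were called in sh-B, 5 in sh-C, 7 in sh-B against sh-C and 4 in sh-A against sh-C. All genes called then numbered 7231 in sh-A, 7388 in sh-B, 6725 in sh-C and 7307 in sh-B against sh-C. The same setting turned the sign of AXL (-0.19) and FGFR1 (-0.06) in sh-A, of IGF1R in sh-B (0.09), and of AXL (-0.45), TYRO3 (-0.08) and FGFR1 (-0.20) in sh-A against sh-C. EPHA2 in sh-A was 0.01 under both limma settings. GAS6, near 0 throughout, turned to -0.03 (upper quartile), -0.001 (stricter filter) and -0.001 (limma, pseudocount 1) in sh-B. In sh-C it turned to -0.03 (upper quartile), -0.01 (stricter filter), -0.05 and -0.03 (limma). In sh-B against sh-C it turned to 0.01 (RLE), 0.01 (stricter filter), 0.01 (DESeq2), 0.05 and 0.03 (limma) and 6e-05 (2 groups only).

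Leaving out 1 library at a time gave 1 to 2 of the 8 genes in sh-A, 2 to 3 in sh-B, 2 to 5 in sh-B against sh-C and 2 to 3 in sh-A against sh-C, and 766 to 2762 genes in sh-C. Fold changes whose sign turned ranged from -0.19 to 0.55 (AXL), -0.06 to 0.41 (FGFR1) and -0.13 to 0.00078 (EPHA2) in sh-A, -0.10 to 0.13 (GAS6) and -0.09 to 0.09 (IGF1R) in sh-B, and -0.10 to 0.15 (GAS6) in sh-C. They ranged from -0.13 to 0.11 (GAS6) in sh-B against sh-C, and from -0.42 to 0.32 (AXL), -0.06 to 0.12 (TYRO3) and -0.21 to 0.26 (FGFR1) in sh-A against sh-C. With the replicate number as a block, 5 of the 8 genes were called in sh-A against sh-B, as without it. In sh-C, whose numbers did not pair with control, 2 were called and 3670 genes in all. Other pairs of groups share fewer than 2 numbers, so that no paired fit could be made. Calls were also lost for TYRO3 in sh-B against sh-C with no filter (adjusted p 0.058), with limma (0.12) and with the 2 groups alone (0.076), for MST1R in sh-A with the 2 groups alone (0.055), and for MET in sh-B against sh-C without sh-B 4 (0.05). The cause of these changes was not tested, beyond the smaller spread that leaving out distant libraries brings. The comparison of AXL and TYRO3 proteins was not run.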
